A study of Homo sapiens with 12 samples.

Results

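The comparison described here set cells that had received both treatments of the study against cells that had received neither. HT1080, an established human fibrosarcoma line that carries the NRAS mutation Q61K, was given either siQ61K, an siRNA named for that mutation, or siNC, the control siRNA, and either poly(dA:dT) or DMSO, and RNA was sequenced from 12 libraries in 4 groups of 3. The 6 libraries compared were siQ61K with poly(dA:dT) replicates 1 to 3, called the double-treated libraries below, and siNC with DMSO replicates 1 to 3, called the control libraries. Genes entered the comparison if they reached at least 1 TPM in at least 3 of these 6 libraries, which left 13661 of the 55243 genes in the table. TPM is a relative abundance scaled for transcript length. All groups share the cell line and an siRNA, and the sources used here give no dose or exposure time and no delivery control for poly(dA:dT). A single siRNA against NRAS was used, the TPM of NRAS do not separate its alleles, and the labels do not state whether replicates were cultured apart, so p-values reflect only how far these particular libraries spread, possibly for technical reasons.

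RAS proteins pass signals from growth factor receptors through RAF and MEK to the kinase ERK, and mutations at glutamine 61 hold them in the active, GTP-bound state. Poly(dA:dT) is a synthetic double-stranded DNA that stands in for microbial or damaged DNA in the cytosol: cGAS senses it and signals through STING, and RNA polymerase III can copy it into RNA that RIG-I senses through MAVS. Both routes reach the kinase TBK1 and the factor IRF3 and lead to type I and type III interferons, which act through JAK kinases, STAT proteins and IRF9 to switch on the interferon-stimulated genes.

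NRAS, the target of the siRNA, was lower in every double-treated library than in every control library. It had 20.1, 20.3 and 23.5 TPM in the double-treated libraries, against 59.6, 60.6 and 41.4 TPM in the control libraries (log2 fold change -1.28, SE 0.16, adjusted p = 0.000108, limma with Benjamini-Hochberg adjustment over all genes tested, as for every adjusted p below). The exact two-sided permutation test on these 6 values gave p = 0.1, the smallest p that 3 libraries against 3 allow. HRAS, a close relative of NRAS, had 92.1, 84.6 and 65.02 TPM in the double-treated libraries, against 74.6, 72.3 and 82.6 TPM in the control libraries, and its groups overlapped (adjusted p = 0.769).

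Of the cell marker lists, the mesenchymal one had the highest summed TPM, most of it from VIM. The summed TPM of 12 mesenchymal markers were 8632, 7078 and 8346 in the double-treated libraries, against 8748, 9253 and 8616 in the control libraries. VIM alone had 5251, 4728 and 5480 TPM in the double-treated libraries, against 6129, 6111 and 5423 TPM in the control libraries. COL1A1, COL1A2 and PDGFRB were low, with means of 5.87, 1.57 and 1.91 TPM in the double-treated libraries. Their means in the control libraries were 2.68, 0.888 and 2.65 TPM. Of the 12 markers, 10 passed the filter on low values (COL3A1 and THY1 did not). Epithelial and leukocyte markers, 10 of each, summed to between 0.797 and 4.12 TPM in each of the 6 libraries, with CDH1 and CD14 listed at 0 in all of them. Endothelial markers summed to 45.8, 47.3 and 34.8 TPM in the double-treated libraries, against 68.9, 84.6 and 94.6 TPM in the control libraries, nearly all of it from TIE1, while VWF stayed under 1 TPM. Replicates correlated at 0.966 to 0.975 across genes (Pearson) in the double-treated group and at 0.977 to 0.982 in the control group. Mitochondrially encoded mRNAs took 25942, 42980 and 32601 TPM of each double-treated library, against 29234, 28652 and 26463 TPM of each control library, so double-treated replicate 2 stood apart on this measure. On the second principal component of all 12 libraries, which held 25.9% of the variance, double-treated replicate 1 (8.0) lay apart from replicates 2 (48.3) and 3 (41.0). TPM keep no depth, which is therefore unknown here.

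The 2 treatments together changed 3297 genes (24.1% of those tested) at an adjusted p under 0.05: 1076 were higher (7.88%) and 2221 lower (16.3%) in the double-treated libraries. The largest changes were mostly upward. A called log2 fold change of at least 2 was seen in 68 genes that rose and in 19 that fell, and one of at least 1 in size in 361 that rose and 497 that fell. In 5165 genes (37.8%) the 3 double-treated values did not overlap the 3 control values. At an unadjusted p under 0.05, 5030 genes stood out. At least 1 TPM in all 3 double-treated libraries and in no control library was found for 140 genes, and the reverse for 93. All fold changes are on the log2(TPM + 1) scale, which understates the change of low genes. Their median over all genes tested was -0.13, and scaling by median of ratios moved it to 0.00. That scaling changed the share of higher genes among the calls to 51.80%, against 32.64% on the deposited TPM. Quantile normalization gave 48.77%, so the surplus of genes that fell rests on the scaling. The list medians given below are to be read against -0.13, and the list counts against 7.88% higher and 16.3% lower of all genes tested. Leaving out 1 library gave between 1998 calls (without control replicate 2) and 3553 (without replicate 3 of the siQ61K DMSO group, which shares the estimate of spread); without double-treated replicate 2 there were 2163.

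**Figure D1:**
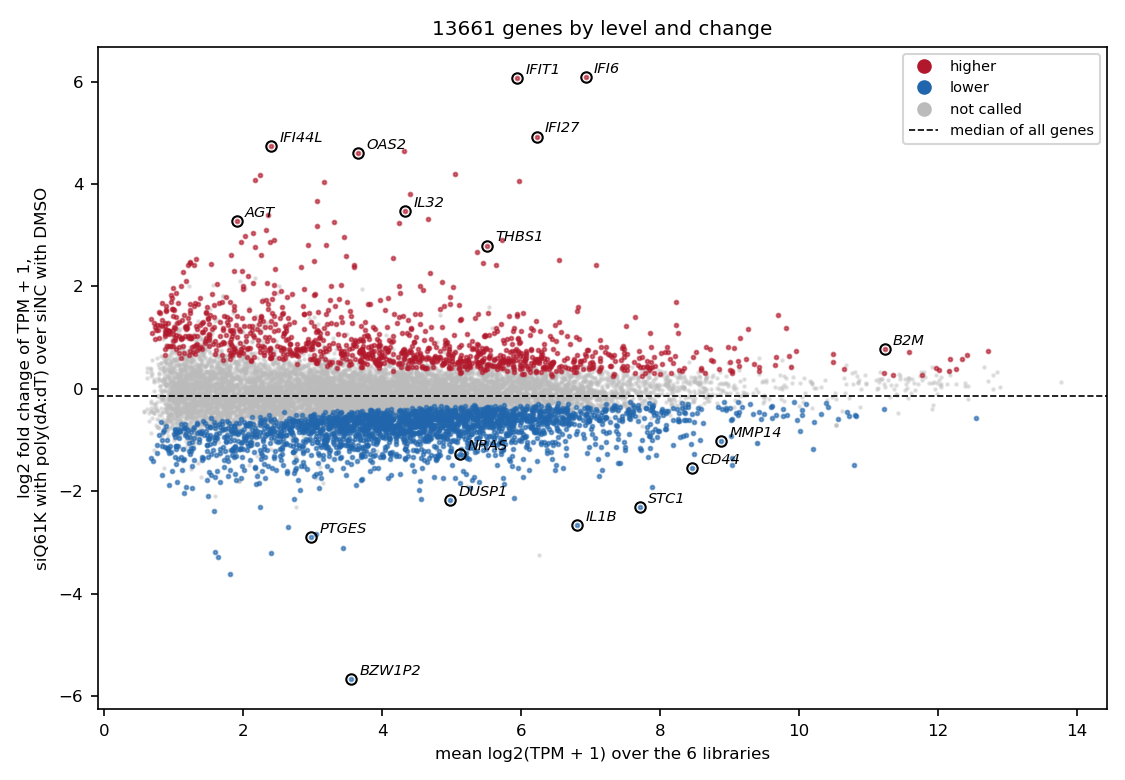
Log2 fold change of TPM + 1, double-treated over control libraries, against the mean log2(TPM + 1) of the 6 libraries, for the 13661 genes tested. Red points were called higher, blue points lower and grey points not called, and the dashed line is the median of all genes (-0.13). The largest positive changes reached 6.09 and belonged to interferon-stimulated genes such as IFI6 and IFIT1.

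Genes whose products block viral replication rose most. The 13 highest of the called genes with a mean of at least 5 TPM and no overlap were all interferon-stimulated, and they were followed by IL32 and SSC4D. IFI6, a mitochondrial and endoplasmic reticulum protein that protects cells from apoptosis and flaviviruses, had 1054, 1069.7 and 895 TPM in the double-treated libraries, against 11.3, 16.5 and 14.03 TPM in the control libraries (log2 fold change 6.09, SE 0.16, adjusted p = 4.21e-11). IFIT1, which binds viral RNA that lacks a host cap, had 542, 535 and 440.1 TPM in the double-treated libraries, against 6.4002, 7.15 and 5.98 TPM in the control libraries (log2 fold change 6.07, SE 0.15, adjusted p = 3.56e-11). The ratio of the mean TPM was 72.3 for IFI6 and 77.7 for IFIT1.

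The promoters of most of the highest genes hold the interferon-stimulated response element, the word that a complex of STAT proteins and IRF9 binds, and those of the 7 with the largest changes and a match are shown. The stretches are from RefSeq promoter windows (GRCh38.p14; 250 bases before to 50 after an annotated start), are written on the strand of the gene and lie before the start, and capitals mark the word GAAANNGAAA or its reverse complement TTTCNNTTTC.
IFI6, chr1:27672261-27672363, minus strand: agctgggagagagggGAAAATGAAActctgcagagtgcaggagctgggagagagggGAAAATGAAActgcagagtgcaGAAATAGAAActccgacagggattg
IFIT1, chr10:89392492-89392544, plus strand: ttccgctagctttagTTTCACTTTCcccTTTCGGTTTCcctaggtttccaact
IFI27, chr14:94110613-94110665, plus strand: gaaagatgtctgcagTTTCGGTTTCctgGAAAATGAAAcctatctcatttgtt
IFI44L, chr1:78620360-78620399, plus strand: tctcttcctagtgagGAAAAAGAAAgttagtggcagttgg
IFIT3, chr10:89327826-89327899, plus strand: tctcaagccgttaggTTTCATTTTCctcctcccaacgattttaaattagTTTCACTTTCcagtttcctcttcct
IFI44, chr1:78649756-78649788, plus strand: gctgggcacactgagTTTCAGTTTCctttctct
RSAD2, chr2:6877617-6877656, plus strand: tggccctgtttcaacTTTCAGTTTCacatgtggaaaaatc
Of the 15 highest genes, 12 had a window in the reference table and 9 of these held the word on either strand in at least 1 window. Over the whole table the word was in 1255 of 35116 windows (3.574%). Among the 72 of 90 tested genes of the interferon-alpha response list that had a window, 43 of 103 windows held it (41.75%). IFI6 carried 3 copies and IFIT1, IFI27 and IFIT3 carried 2 each in the stretch shown. A match describes the letters of the window and is no measured binding site.

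**Figure D2:**
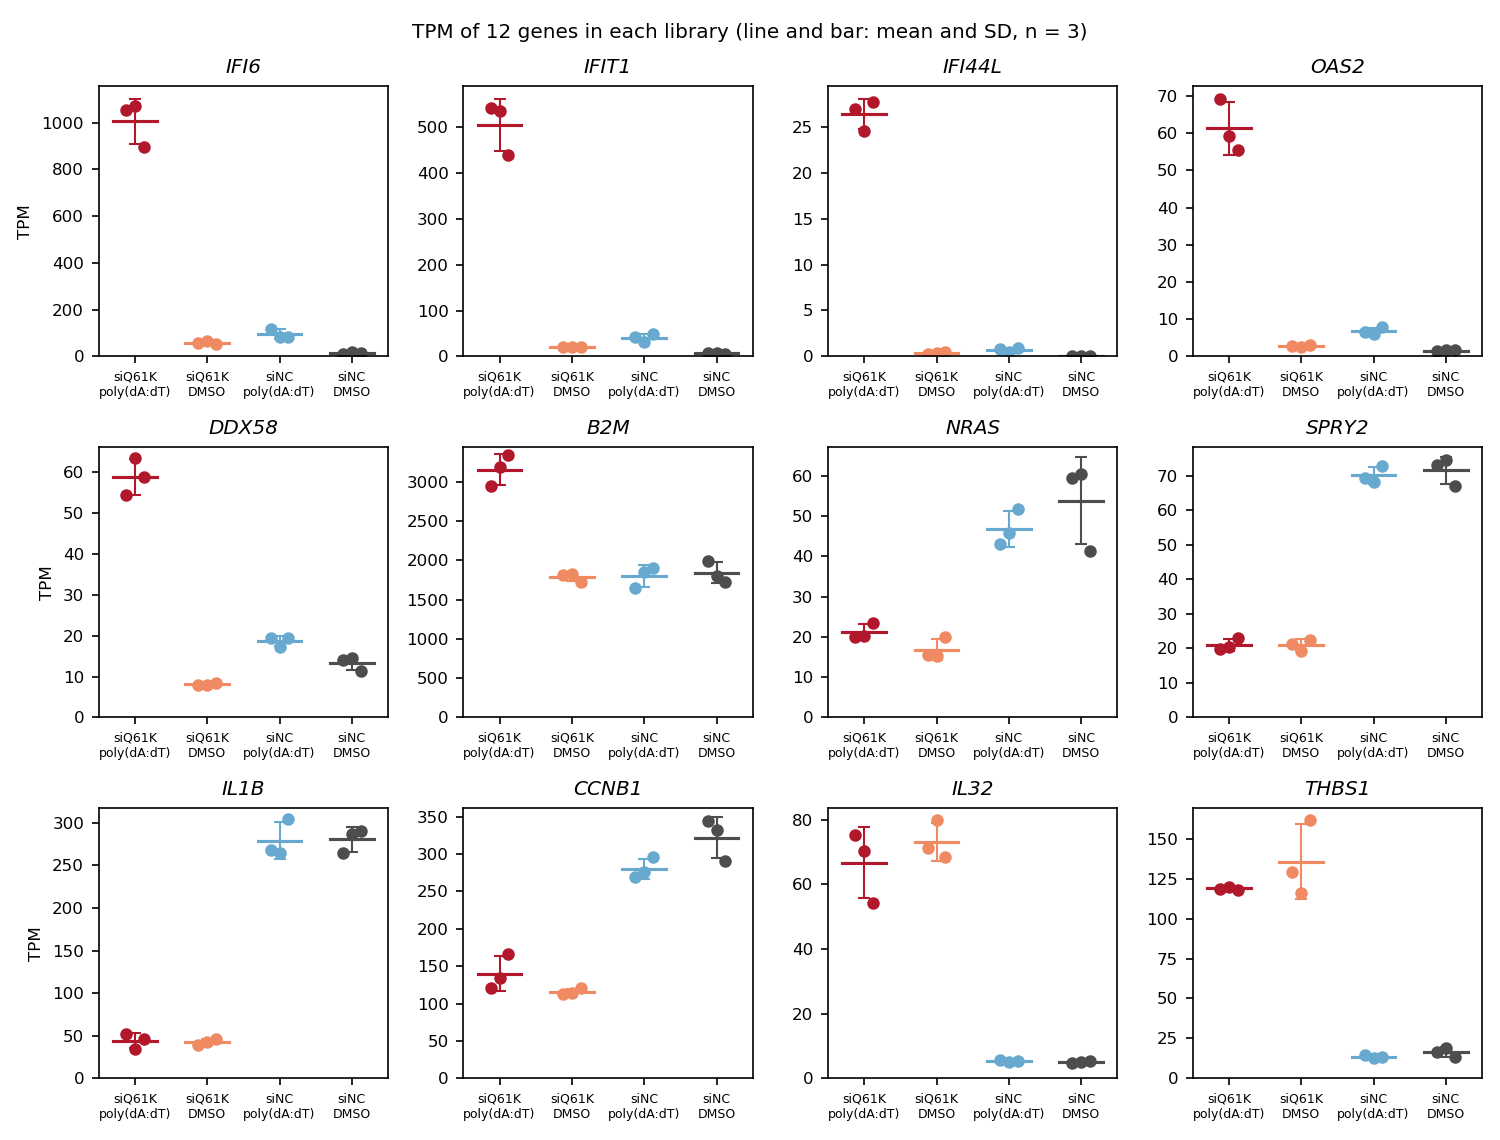
TPM (linear axes from 0) of 12 genes in each of the 12 libraries, with the mean (line) and SD (bar) of the 3 libraries of a group. IFI6, IFIT1, IFI44L, OAS2, DDX58 and B2M were highest in the double-treated group, while SPRY2, IL1B, CCNB1, IL32 and THBS1 in the double-treated group lay near their level under siQ61K with DMSO.

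Of 36 antiviral effectors, 35 passed the filter and 32 of them rose, with none lower (median log2 fold change 2.55; 32 and 0 also after median-of-ratios scaling). ISG20 and TRIM5 were among those not called. Of the 35, 6 were under 1 TPM in every control library, IFI44L, RSAD2 and MX2 among them. They passed the filter through the double-treated libraries alone, so they had to differ. Of the 27 with at least 1 TPM in all 3 control libraries, 24 rose. IFI27, a small mitochondrial protein, had 407, 477 and 359 TPM in the double-treated libraries, against 14.2, 8.99 and 15.5 TPM in the control libraries (log2 fold change 4.93, SE 0.26, adjusted p = 3.58e-08). IFI44L, which dampens the interferon response, had 26.9, 24.6 and 27.8 TPM in the double-treated libraries, against 0.0513, 0.0395 and 0 TPM in the control libraries (log2 fold change 4.73, SE 0.19, adjusted p = 2.85e-09). IFIT3, the partner that stabilises IFIT1, had 119, 93.7 and 86.8 TPM in the double-treated libraries, against 3.18, 3.403 and 2.498 TPM in the control libraries. No overlap between the groups was a condition for naming these 3 genes.

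The same held for the enzymes and membrane proteins of the group. OAS2, which makes short oligoadenylates that trigger RNA decay, had 69.3, 59.2 and 55.5 TPM in the double-treated libraries, against 1.36, 1.71 and 1.61 TPM in the control libraries (log2 fold change 4.60), and its relative OAS1 had 107, 68.2 and 66.03 TPM in the double-treated libraries, against 3.85, 4.47 and 5.85 TPM in the control libraries (log2 fold change 3.81). RSAD2, or viperin, which makes a chain-terminating nucleotide, had 20.8, 21.5 and 15.8 TPM in the double-treated libraries, against 0.0797, 0 and 0.306 TPM in the control libraries (log2 fold change 4.17). MX1, a dynamin-like GTPase that traps viral ribonucleoproteins, had 45.8, 33.02 and 29.5 TPM in the double-treated libraries, against 1.03, 0.983 and 1.73 TPM in the control libraries, and MX2, its relative that acts at the nuclear pore, had 17.9, 22.3 and 13.3 TPM in the double-treated libraries, against 0.0979, 0.0993 and 0.105 TPM in the control libraries. IFITM1, which blocks fusion of virus and cell membranes, had 322, 251 and 206 TPM in the double-treated libraries, against 17.4, 13.9 and 12.3 TPM in the control libraries. These 6 genes are among the 15 highest, for which groups without overlap were a condition of the choice. RSAD2 and MX2 also passed the filter through the double-treated libraries alone, so they had to differ. IFITM1, IFITM2 and IFITM3 are close copies of each other, and how reads were split among them is not known. The weakest called member was IFITM2 (log2 fold change 0.44, adjusted p = 0.0142). Together the 36 effectors took 5749, 5374 and 4495 TPM in the double-treated libraries, against 1404, 1353 and 1306 TPM in the control libraries.

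ISG15, a ubiquitin-like protein that is among the classic interferon-stimulated genes, did not pass the filter in this table. The annotation behind the TPM is not given in the sources used here, so whether its low values reflect the RNA or the table is not known. It was listed at 0.424, 4.901 and 1.31 TPM in the double-treated libraries and at 0 in all 3 control libraries.

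The wider interferon-alpha response moved the same way, with 63 of its 90 tested members (of 97) higher and 2 lower, and a median log2 fold change of 1.07. Of the 80 members with at least 1 TPM in every control library, 53 rose. Those that fell were IL4R, a cytokine receptor chain (-0.70), and RIPK2, a kinase of bacterial sensing (-0.48), and the count was 1 without double-treated replicate 1 or 2 or control replicate 1 or 2. IFI44, a relative of IFI44L, had 139, 151 and 132 TPM in the double-treated libraries, against 6.86, 6.397 and 6.91 TPM in the control libraries (log2 fold change 4.20). IFIT2, a further RNA-binding member of the IFIT family, had 30.2, 31.3 and 25.4 TPM in the double-treated libraries, against 1.19, 1.55 and 1.32 TPM in the control libraries (log2 fold change 3.67). USP18, the protease that removes ISG15 and blocks the interferon receptor, had 30.2, 21.3 and 22.3 TPM in the double-treated libraries, against 2.402, 1.07 and 2.04 TPM in the control libraries (log2 fold change 3.19, SE 0.25, adjusted p = 2.16e-06). These genes were low but measured in the control libraries.

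Among the interferons and the parts of their receptor pathway, the transcription factors IRF9, STAT2 and IRF1 rose and the receptor chains were not called. Of 27 genes, 20 passed the filter, 5 rose and 2 fell, with a median of -0.01. IRF9, which carries STAT2 to DNA, had 57.9, 63.3 and 70.5 TPM in the double-treated libraries, against 13.6, 14.8 and 17.5 TPM in the control libraries (log2 fold change 1.99, SE 0.13, adjusted p = 4.30e-07). STAT2 had 50.9, 45.8 and 47.1 TPM in the double-treated libraries, against 14.1, 15.9 and 16.7 TPM in the control libraries (log2 fold change 1.56, adjusted p = 9.33e-06). IRF1, a related factor, rose less (0.81, adjusted p = 0.00503). The receptor chains IFNAR1 (-0.35, adjusted p = 0.214) and IFNAR2 (-0.08, adjusted p = 0.743) and the kinase JAK1 (0.15, adjusted p = 0.613) were not called. The kinase JAK2 (-0.63) and the phosphatase PTPN11 (-0.55) fell, but neither was called without double-treated replicate 1, 2 or 3 or without control replicate 1 or 2, nor after median-of-ratios scaling.

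Interferon transcripts themselves were at or near 0, except IFNE. Of the 21 type I and type III interferon genes in the table, 3 were above 0 in any double-treated library and 1 in any control library. IFNB1, the first interferon made after cytosolic DNA is sensed, was listed at 0.226, 0 and 0 TPM in the double-treated libraries and at 0 in all 3 control libraries. IFNL1, a type III interferon, was listed at 0, 0.356 and 0 TPM in the double-treated libraries and at 0 in the control libraries. IFNE, an interferon of epithelia, had 1.76, 1.38 and 2.39 TPM in the double-treated libraries, against 1.29, 1.23 and 0.98 TPM in the control libraries and was not called (adjusted p = 0.249).

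The RNA sensors DDX58 and DHX58 rose, while DNA sensors differed among themselves. DDX58, which encodes RIG-I, had 54.6, 63.5 and 58.8 TPM in the double-treated libraries, against 13.9, 14.5 and 11.3 TPM in the control libraries (log2 fold change 2.08, SE 0.13, adjusted p = 1.84e-07). DHX58, its relative LGP2, had 21.6, 7.76 and 6.79 TPM in the double-treated libraries, against 1.897, 2.21 and 3.05 TPM in the control libraries, with double-treated replicate 1 well above the other two (log2 fold change 1.79, adjusted p = 0.00211). IFIH1, or MDA5, was called at a low level (1.03, adjusted p = 0.0314), but it was under 1 TPM in every control library and passed the filter through the double-treated libraries alone. In the DNA arm, CGAS had 1.37, 1.24 and 1.88 TPM in the double-treated libraries, against 2.02, 1.95 and 1.22 TPM in the control libraries, with overlapping groups (log2 fold change -0.12, adjusted p = 0.741). STING1, through which cGAS signals, was lower, with 34.2, 21.05 and 22.5 TPM in the double-treated libraries, against 49.4, 55.3 and 59.8 TPM in the control libraries (log2 fold change -1.08, SE 0.17, adjusted p = 0.000567). IFI16, a nuclear DNA sensor, had 277, 282 and 274 TPM in the double-treated libraries, against 122, 125 and 109 TPM in the control libraries (log2 fold change 1.22, SE 0.09, adjusted p = 1.53e-06), and SAMHD1, which removes the nucleotides that reverse transcription needs, had 46.1, 37.9 and 43.3 TPM in the double-treated libraries, against 6.51, 7.25 and 5.51 TPM in the control libraries (log2 fold change 2.55). MAVS, the adaptor of RIG-I, was not called (-0.02, adjusted p = 0.937), and nor were TBK1 (-0.16, adjusted p = 0.551) and IRF3 (0.39, adjusted p = 0.102), where both arms meet. Of 27 tested members of this group (of 29), 8 rose (29.6%, against 7.88% of all genes) and 3 fell (11.1%, against 16.3%), with a median of 0.02. Those that fell were STING1 and the polymerase III subunits POLR3D and POLR3G. The count that rose was 5 without any 1 of double-treated replicates 1 and 2 and control replicates 1, 2 and 3.

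**Figure D3:**
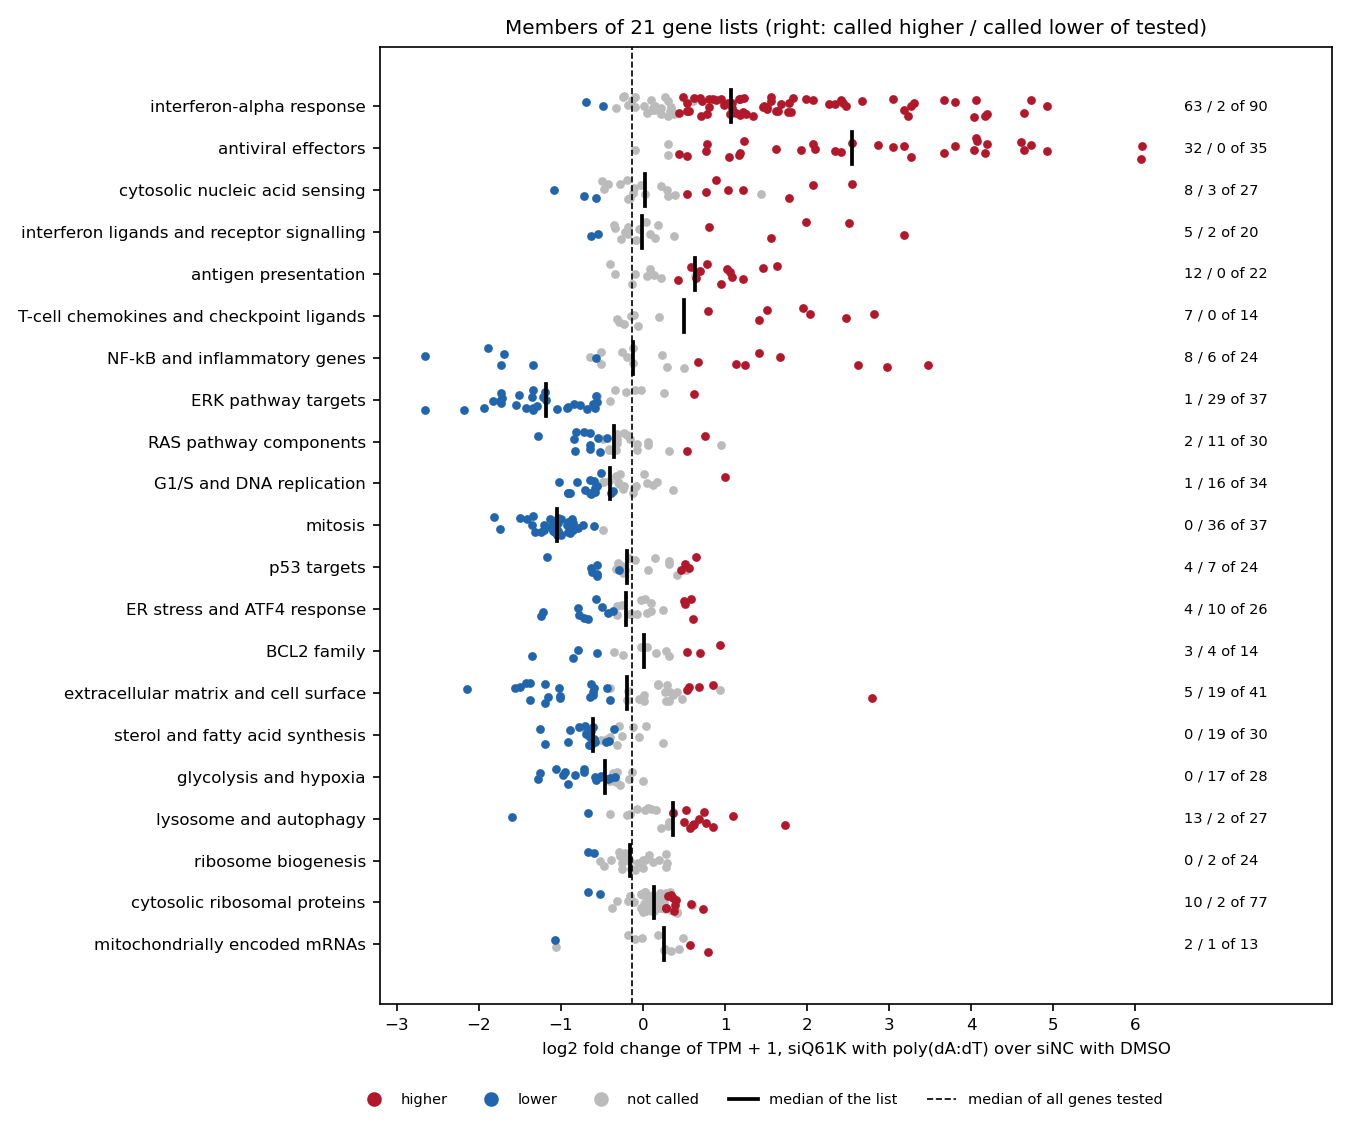
Log2 fold change of TPM + 1, double-treated over control libraries, of each tested member of 21 gene lists. Red points were called higher, blue lower and grey not called; the black bar is the median of a list, the dashed line the median of all genes tested (-0.13), and the numbers on the right count the calls. Antiviral effectors (32 of 35 higher) and mitosis genes (36 of 37 lower) stand at opposite ends.

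About as many genes of MHC class I antigen presentation rose as were not called. Of 22 tested members (of 27), 12 rose and none fell, with a median of 0.64 (14 and 0 after median-of-ratios scaling). B2M, the light chain shared by all class I molecules, had 2939, 3189 and 3337 TPM in the double-treated libraries, against 1985, 1805 and 1723 TPM in the control libraries (log2 fold change 0.78, SE 0.09, adjusted p = 6.41e-05). The heavy chain HLA-B had 64.8, 61.5 and 53.7 TPM in the double-treated libraries, against 15.6, 18.2 and 22.4 TPM in the control libraries (log2 fold change 1.64, SE 0.16, adjusted p = 1.08e-05). HLA genes are close copies, and a table per symbol does not show how their reads were split. TAP1, the peptide transporter, had 57.5, 39.9 and 35.8 TPM in the double-treated libraries, against 17.99, 17.5 and 18.97 TPM in the control libraries (1.22). The immunoproteasome subunits PSMB9 (1.46) and PSMB8 (1.06) and the proteasome activator PSME2 (1.09) rose as well, PSMB9 with 83.9, 59.8 and 63.2 TPM in the double-treated libraries, against 24.2, 19.95 and 28.98 TPM in the control libraries. HLA-DRA and HLA-DRB1, of class II, did not pass the filter.

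Several T-cell chemokines and checkpoint ligands rose, at low levels. Of 14 tested members (of 19), 7 rose and none fell, with a median of 0.50. Of the 7, 4 (CXCL10, CXCL11, CCL5 and TNFSF10) were under 1 TPM in every control library. They passed the filter through the double-treated libraries alone, so they had to differ. Of the 9 members with at least 1 TPM in all 3 control libraries, 3 rose. CXCL10, which draws in T cells through CXCR3, had 4.18, 5.22 and 4.29 TPM in the double-treated libraries and was listed at 0 in all 3 control libraries (adjusted p = 2.08e-05). CCL5, which draws in T cells and monocytes, had 5.32, 5.97 and 4.59 TPM in the double-treated libraries, against 0.399, 0.531 and 0.656 TPM in the control libraries (adjusted p = 6.10e-05). CCL2, which draws in monocytes, had 13.6, 15.1 and 11.8 TPM in the double-treated libraries, against 2.48, 3.14 and 2.5997 TPM in the control libraries (log2 fold change 1.95, SE 0.25, adjusted p = 0.000128). LGALS9, a galectin that binds the checkpoint receptor TIM-3, had 25.1, 18.8 and 26.9 TPM in the double-treated libraries, against 2.97, 3.03 and 1.58 TPM in the control libraries (log2 fold change 2.82, SE 0.31, adjusted p = 3.79e-05). CD274, which encodes PD-L1, had 8.35, 17.6 and 13.9 TPM in the double-treated libraries, against 7.41, 6.07 and 7.32 TPM in the control libraries (log2 fold change 0.80, SE 0.25, adjusted p = 0.0322). Double-treated replicate 1 came close to the control libraries in CD274, and the call was lost without double-treated replicate 2 or 3 or any 1 control replicate (0.58 to 0.84).

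NF-kB and inflammatory genes moved in both directions. Of 24 tested (of 32), 8 rose and 6 fell, with a median of -0.12, and both counts were the same after median-of-ratios scaling. BIRC3, SAA1, SAA2, LCN2 and CFB were under 1 TPM in every control library and passed the filter through the double-treated libraries alone, and of the 18 members with at least 1 TPM in all 3 control libraries 4 rose and 6 fell. IL32, a cytokine of innate cells, had 75.4, 70.2 and 54.4 TPM in the double-treated libraries, against 4.62, 4.97 and 5.4999 TPM in the control libraries (log2 fold change 3.48, SE 0.14, adjusted p = 2.85e-09). SAA1, an acute-phase protein, had 12.9, 6.66 and 13.1 TPM in the double-treated libraries, against 0, 0.645 and 0.862 TPM in the control libraries, and SAA2, nearly identical to it, had 12.004, 6.11 and 6.27 TPM in the double-treated libraries, against 0.221, 0.507 and 0.576 TPM in the control libraries, so how reads were split between them is uncertain. Against these, IL1B, the precursor of interleukin-1 beta, had 51.5, 34.1 and 46.7 TPM in the double-treated libraries, against 264, 287 and 290.4 TPM in the control libraries (log2 fold change -2.66, SE 0.14, adjusted p = 3.44e-08). CXCL8, a neutrophil chemokine, had 25.3, 27.8 and 32.8 TPM in the double-treated libraries, against 119.9, 97.1 and 78.4 TPM in the control libraries (log2 fold change -1.73, SE 0.17, adjusted p = 1.14e-05), and IL11, a cytokine of stromal cells, had 8.77, 2.83 and 6.11 TPM in the double-treated libraries, against 21.3, 22.2 and 25.1 TPM in the control libraries (log2 fold change -1.89). PTGES, the enzyme that makes prostaglandin E2 and a gene outside this list, was among the 15 lowest, with 3.02, 0.586 and 2.79 TPM in the double-treated libraries, against 17.2, 24.9 and 20.1 TPM in the control libraries (log2 fold change -2.90, SE 0.29, adjusted p = 1.44e-05).

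Most targets of the ERK pathway fell. Of 37 tested members (of 44), 29 fell and 1 rose, with a median of -1.18 (28 and 1 after median-of-ratios scaling), and their summed TPM were 2746, 2116 and 2371 in the double-treated libraries, against 4783, 5162 and 5079 in the control libraries. SPRY2, a feedback inhibitor of receptor signalling to RAS, had 19.7, 20.3 and 23.1 TPM in the double-treated libraries, against 73.01, 74.6 and 67.1 TPM in the control libraries (log2 fold change -1.72, SE 0.11, adjusted p = 2.11e-07). DUSP4, a phosphatase that inactivates ERK in the nucleus, had 22.1, 16.8 and 17.8 TPM in the double-treated libraries, against 67.9, 77.7 and 78.7 TPM in the control libraries (log2 fold change -1.94, SE 0.13, adjusted p = 3.43e-07). DUSP1, a phosphatase of several MAP kinases, had 14.5, 14.2 and 13.04 TPM in the double-treated libraries, against 69.9, 67.8 and 61.5 TPM in the control libraries (log2 fold change -2.17, SE 0.12, adjusted p = 4.55e-08). ETV5, a PEA3-family transcription factor, had 18.1, 19.99 and 21.6 TPM in the double-treated libraries, against 44.5, 46.6 and 51.2 TPM in the control libraries (-1.21), TGFA, a ligand of the EGF receptor, had 21.04, 19.7 and 23.4 TPM in the double-treated libraries, against 78.99, 89.2 and 67.4 TPM in the control libraries (-1.82), and EGR1, an immediate-early factor, had 4.72, 3.55 and 3.19 TPM in the double-treated libraries, against 16.6, 14.3 and 14.3 TPM in the control libraries (-1.75). Groups did not overlap in any of these 6, and the same held for 37.8% of all genes tested. The 6 were named for large changes or from a fixed set, so this is no result about the list. CCND1, cyclin D1, fell less (-0.57, adjusted p = 0.0231), and the call was lost without double-treated replicate 2 or 3 or control replicate 2 or 3 (log2 fold changes -0.57 to -0.51). MYC, the 1 member that rose, had 49.8, 40.4 and 44.6 TPM in the double-treated libraries, against 27.1, 30.7 and 28.6 TPM in the control libraries (log2 fold change 0.62, SE 0.12, adjusted p = 0.00222). DUSP6, often read as a measure of ERK output, did not pass the filter, with 0.669, 0.712 and 0.189 TPM in the double-treated libraries, against 0.648, 1.33 and 1.26 TPM in the control libraries.

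Among 30 components of the RAS pathway 11 fell (36.7%, against 16.3% of all genes) and 2 rose (6.67%, against 7.88%), with a median of -0.35. But the count that fell was 4 without double-treated replicate 2 or control replicate 2. It was 7 without double-treated replicate 3 or control replicate 1 or 3, and 8 after median-of-ratios scaling. NRAS fell most. AKT1, a kinase of the PI3K branch, had 70.6, 42.2 and 52.2 TPM in the double-treated libraries, against 76.5, 106 and 107 TPM in the control libraries (log2 fold change -0.81, SE 0.18, adjusted p = 0.00631). RRAS2, a RAS relative, rose, with 148, 172 and 167 TPM in the double-treated libraries, against 106, 104 and 78.2 TPM in the control libraries (log2 fold change 0.76, SE 0.12, adjusted p = 0.000768), as did MAP2K2, which encodes MEK2 (0.54). SOS1, an exchange factor that loads RAS with GTP, was not called (-0.31, adjusted p = 0.368).

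Mitosis genes fell almost without exception. Of the 37 tested, 36 fell and none rose, with a median of -1.05 and the same counts after median-of-ratios scaling, and MAD2L1 was not called. PLK1, a kinase of mitotic entry and spindle assembly, had 61.6, 41.8 and 57.3 TPM in the double-treated libraries, against 135, 163 and 157 TPM in the control libraries (log2 fold change -1.50, SE 0.14, adjusted p = 8.02e-06). CCNB1, cyclin B1, had 121, 134 and 166 TPM in the double-treated libraries, against 343, 331 and 291 TPM in the control libraries (log2 fold change -1.20, SE 0.11, adjusted p = 1.12e-05), and CCNB2, cyclin B2, had 35.4, 35.5 and 31.1 TPM in the double-treated libraries, against 94.5, 92.2 and 90.4 TPM in the control libraries (log2 fold change -1.42, SE 0.10, adjusted p = 8.65e-07). The kinesins KIF20A, of cytokinesis, and KIF2C, of kinetochore microtubules, fell further, KIF20A with 14.3, 8.19 and 12.8 TPM in the double-treated libraries, against 36.8, 44.7 and 47.6 TPM in the control libraries (-1.81), and KIF2C with 15.97, 12.2 and 17.4 TPM in the double-treated libraries, against 51.96, 52.9 and 52.8 TPM in the control libraries (-1.74). CENPA, the centromeric histone, had 15.1, 10.8 and 16.04 TPM in the double-treated libraries, against 35.4, 37.9 and 37.1 TPM in the control libraries (-1.35). The 37 genes summed to 1684, 1781 and 1964 TPM in the double-treated libraries, against 3811, 3790 and 3457 TPM in the control libraries.

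Promoters of mitosis genes often carry the cell cycle homology region, bound by the DREAM and MuvB complexes. Of PLK1, CCNB1, CCNB2, KIF20A, KIF2C and CENPA, only PLK1 had a match, and a gene without a window could have none. The stretch of PLK1 is from the same RefSeq windows (GRCh38.p14), with the word in capitals.
PLK1, chr16:23678845-23678882, plus strand: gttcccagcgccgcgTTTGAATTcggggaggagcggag
The words searched were TTTGAATT and TTTGAAAT on both strands. They were in 9 of 37 windows of the 30 list members that had one (24.32%), against 971 of all 35116 windows (2.765%). The interferon word GAAANNGAAA was in none of these 37 windows, against 3.574% of all windows, a share at which 37 windows may well hold none.

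Of 34 tested genes of DNA replication (of 35), 16 fell, 1 rose and 17 were not called, with a median of -0.40, and 12 fell after median-of-ratios scaling. RRM2, a subunit of ribonucleotide reductase, had 61.4, 83.7 and 79.98 TPM in the double-treated libraries, against 137, 149.9 and 138 TPM in the control libraries (log2 fold change -0.92, SE 0.14, adjusted p = 0.000505), and RRM1, its partner, had 55.9, 52.6 and 60.7 TPM in the double-treated libraries, against 102, 124 and 91.6 TPM in the control libraries (-0.89). CDT1, which licenses replication origins, had 18.6, 20.3 and 12.6 TPM in the double-treated libraries, against 31.99, 40.2 and 33.9 TPM in the control libraries (-1.02). POLA1, the catalytic subunit of DNA polymerase alpha, fell by 0.91 on the log2 scale. CCNE1, cyclin E1, was the 1 gene that rose, with 11.4, 11.03 and 11.2 TPM in the double-treated libraries, against 4.25, 6.74 and 4.54 TPM in the control libraries (log2 fold change 1.00, SE 0.18, adjusted p = 0.00159). PCNA, the sliding clamp, was not called (0.02, adjusted p = 0.919), and nor were CDC6, MCM4 and MCM10. The E2F words TTTGGCGC and TTTCGCGC, on either strand, were in 13 of 39 windows of the 30 members with one (33.33%), against 403 of all 35116 windows (1.148%). Of RRM2, RRM1, CDT1, POLA1 and CCNE1, only POLA1 had a match, and a gene without a window could have none. In POLA1 the word was, on the strand of the gene, in this stretch (RefSeq, GRCh38.p14).
POLA1, chrX:24693766-24693803, plus strand: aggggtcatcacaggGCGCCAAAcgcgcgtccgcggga

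Stress and survival genes gave mixed counts. Of 24 p53 targets, 4 rose (16.7%, against 7.88% of all genes) and 7 fell (29.2%, against 16.3%), with a median of -0.19. Median-of-ratios scaling turned this to 5 higher and 4 lower, and leaving out control replicate 2 left 1 and 3. Without double-treated replicate 2, 2 rose, and without control replicate 1, 4 fell. CDKN1A, the p21 inhibitor of cyclin-dependent kinases, was not called (-0.22, adjusted p = 0.116). GDF15, a secreted stress cytokine, had 1018, 659 and 705 TPM in the double-treated libraries, against 1755, 1738 and 1776 TPM in the control libraries (log2 fold change -1.17, SE 0.15, adjusted p = 0.000108), and BTG2, an antiproliferative protein, had 33.8, 25.5 and 26.5 TPM in the double-treated libraries, against 16.2, 18.6 and 18.5 TPM in the control libraries (log2 fold change 0.65, SE 0.13, adjusted p = 0.00366). Of 26 genes of the ER stress and ATF4 responses (of 27), 4 rose (15.4%) and 10 fell (38.5%), with a median of -0.21. The count that rose was 2 without double-treated replicate 3 or control replicate 2. PHGDH, the first enzyme of serine synthesis, had 55.4, 65.9 and 46.6 TPM in the double-treated libraries, against 111, 118 and 175 TPM in the control libraries (-1.24). ASNS, asparagine synthetase, had 29.2, 31.4 and 41.2 TPM in the double-treated libraries, against 73.4, 83.7 and 80.3 TPM in the control libraries (-1.21). The chaperone HSPA5 (0.58) and the factor DDIT3, or CHOP (0.61), rose.

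The BCL2 family controls mitochondrial apoptosis. Of 14 tested members, 4 fell (28.6%, against 16.3% of all genes), 3 rose (21.4%, against 7.88%) and 7 were not called. The 4 members that fell all oppose cell death: BCL2A1 (-1.35), MCL1 (-0.85), BCL2L2 (-0.79) and BCL2L1, or BCL-XL (-0.56). MCL1 had 162, 166 and 198 TPM in the double-treated libraries, against 335, 319.5 and 297 TPM in the control libraries (adjusted p = 0.000437). The 3 that rose were BOK (0.94), a BAX relative, and the BH3-only members BMF (0.69) and PMAIP1, or NOXA (0.54), which promote cell death; BMF was under 1 TPM in every control library and passed the filter through the double-treated libraries alone. BOK had 11.1, 10.1 and 9.88 TPM in the double-treated libraries, against 4.83, 5.13 and 4.75 TPM in the control libraries (adjusted p = 0.000856). Without double-treated replicate 3 or control replicate 2 or 3, 1 of the 14 tested members rose, and 3 rose and 3 fell after median-of-ratios scaling. BAX, BAK1, BCL2 and BCL2L11 were not called. The median over the family was 0.01.

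Matrix and adhesion genes moved in both directions. Of 41 tested (of 44), 19 fell (46.3%, against 16.3% of all genes) and 5 rose (12.2%, against 7.88%), with a median of -0.19, and after median-of-ratios scaling 15 fell and 11 rose. ITGB1, the beta chain shared by most matrix-binding integrins, had 312, 278 and 344 TPM in the double-treated libraries, against 915, 953 and 769 TPM in the control libraries (log2 fold change -1.49, SE 0.13, adjusted p = 5.37e-06). CD44, the hyaluronan receptor and a mesenchymal marker, had 222, 188 and 207 TPM in the double-treated libraries, against 518, 632 and 674 TPM in the control libraries (log2 fold change -1.55, SE 0.19, adjusted p = 9.05e-05). ITGB3, a chain of the vitronectin receptor, had 3.099, 1.29 and 2.38 TPM in the double-treated libraries, against 9.92, 14.6 and 15.1 TPM in the control libraries (-2.14), and MMP14, a membrane-bound collagenase, had 435, 261 and 320.01 TPM in the double-treated libraries, against 544, 714 and 778 TPM in the control libraries (-1.02). FN1, fibronectin, fell by 0.40 on the deposited scale (adjusted p = 0.0286) and was not called without double-treated replicate 2 or any 1 control replicate (-0.42 to -0.32), nor after median-of-ratios scaling (-0.25, adjusted p = 0.213). In the other direction, THBS1, the matrix protein thrombospondin-1, had 119, 120.1 and 118 TPM in the double-treated libraries, against 16.5, 19.3 and 13.5 TPM in the control libraries (log2 fold change 2.80, SE 0.14, adjusted p = 3.44e-08). SPARC, a collagen-binding matrix protein, had 2207, 1479.8 and 1868 TPM in the double-treated libraries, against 995, 1238 and 1184 TPM in the control libraries (0.69). VIM was not called (-0.19, adjusted p = 0.268).

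Many biosynthetic genes fell and none rose. Of 30 tested genes of sterol and fatty acid synthesis (of 31), 19 fell and none rose, with a median of -0.61 (12 and 0 after median-of-ratios scaling). INSIG1, the sterol sensor that retains SREBP in the endoplasmic reticulum, had 81.4, 70.3 and 85.6 TPM in the double-treated libraries, against 200.01, 197 and 172 TPM in the control libraries (log2 fold change -1.25, SE 0.11, adjusted p = 3.98e-06). FDFT1, squalene synthase, had 221, 171 and 224 TPM in the double-treated libraries, against 367, 349 and 338 TPM in the control libraries (-0.78), and FADS1, a fatty acid desaturase, had 39.4, 28.96 and 33.3 TPM in the double-treated libraries, against 55.7, 73.6 and 64.7 TPM in the control libraries (-0.91). The SREBP word TCACNCCAC, on either strand, was in 1 of 34 windows of the 24 sterol list members with one (2.941%). It was in 396 of all 35116 windows (1.128%). Of 28 tested genes of glycolysis and the hypoxia response (of 30), 17 fell and none rose, with a median of -0.47. After median-of-ratios scaling 12 fell, and 11 without double-treated replicate 2. VEGFA, the angiogenic growth factor, had 61.7, 44.2 and 54.05 TPM in the double-treated libraries, against 117, 142 and 126 TPM in the control libraries (log2 fold change -1.26, SE 0.15, adjusted p = 9.16e-05). HK2, a hexokinase, had 21.5, 18.2 and 23.6 TPM in the double-treated libraries, against 38.8, 44.02 and 41.98 TPM in the control libraries (-0.95), and SLC2A3, the glucose transporter GLUT3, had 33.1, 26.6 and 31.7 TPM in the double-treated libraries, against 61.99, 66.5 and 64.5 TPM in the control libraries (-1.06). No groups overlapped in these 6 genes, against 37.8% of all genes tested without overlap. The 6 were named for large changes or from a fixed set, so this is no result about the lists.

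Among lysosomal genes more rose than fell. Of 27 tested genes of the lysosome and autophagy (of 28), 13 rose and 2 fell, with a median of 0.37 (17 and 2 after median-of-ratios scaling). GPNMB, a glycoprotein of lysosomes and melanosomes, had 17.3, 13.7 and 18.5 TPM in the double-treated libraries, against 3.96, 4.14 and 4.603 TPM in the control libraries (log2 fold change 1.73, SE 0.19, adjusted p = 3.86e-05). ATP6V0D1, a subunit of the proton pump, had 144, 146 and 127 TPM in the double-treated libraries, against 63.1, 65.7 and 63.9 TPM in the control libraries (log2 fold change 1.10, SE 0.10, adjusted p = 1.11e-05). NPC1, which carries cholesterol out of the lysosome, was 1 of the 2 that fell, with 94.7, 59.1 and 97.9 TPM in the double-treated libraries, against 244, 272 and 232 TPM in the control libraries (log2 fold change -1.59, SE 0.17, adjusted p = 2.28e-05), and TFE3, a transcription factor of lysosomal genes, was the other (-0.68). The count that fell was 1 without double-treated replicate 2 or control replicate 2 or 3.

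Most genes of the translation machinery were not called. Of 24 ribosome biogenesis genes none rose and 2 fell, TCOF1 (-0.67) and UBTF (-0.59), both factors of ribosomal DNA transcription. Neither was called without double-treated replicate 2 or 3 or control replicate 2 or 3, and median-of-ratios scaling gave 4 higher and 1 lower. One gene rose without double-treated replicate 1 or 3 or control replicate 3. Of 77 cytosolic ribosomal protein genes 10 rose (13.0%, against 7.88% of all genes) and 2 fell (2.60%, against 16.3%), with a median of 0.14. Without double-treated replicate 2 or 3 or control replicate 2, 4 rose. The 77 genes summed to 249110, 266710 and 252380 TPM in the double-treated libraries, against 231470, 219590 and 228780 TPM in the control libraries. Their mean share of the TPM was 25.6% in the double-treated group and 22.7% in the control group. RPS28 had 4578, 4238 and 3146 TPM in the double-treated libraries, against 2419, 2173 and 2562 TPM in the control libraries (log2 fold change 0.73, SE 0.14, adjusted p = 0.00316). Many ribosomal protein genes have near-identical pseudogenes, so single values are uncertain. Of 13 mitochondrially encoded mRNAs 2 rose (15.4%, against 7.88% of all genes) and 1 fell (7.69%, against 16.3%). Neither that rose was called without double-treated replicate 2 or 3 or any 1 control replicate. The call of the mRNA that fell was lost without double-treated replicate 1 or 2 or control replicate 2 or 3. Without double-treated replicate 1 the count that rose was 4. Their summed level, given above, was highest in double-treated replicate 2.

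Among the 15 lowest genes, 9 are pseudogenes, small RNAs or noncoding and read-through transcripts whose values include entries listed at or near 0. BZW1P2, a processed pseudogene, was lowest, with 3.54, 0 and 8.28e-08 TPM in the double-treated libraries, against 75.4, 89.9 and 84.6 TPM in the control libraries (log2 fold change -5.67, SE 1.03, adjusted p = 0.00173). Its parent gene BZW1, looked at after these values were seen, had 216, 229 and 272 TPM in the double-treated libraries, against 513, 517 and 488 TPM in the control libraries (log2 fold change -1.09, SE 0.13, adjusted p = 6.59e-05). Reads from such copies can be assigned to either, so the pseudogene's own level is uncertain. The same applies to RPL10P13, a copy of RPL10, which was itself not called (0.10, adjusted p = 0.39), and to POC1B-GALNT4, which overlaps POC1B (-1.72). POC1B-GALNT4 lost its call in 3 of the fits with 1 library left out. SCARNA12, AP001094.1 and AC025257.1 were listed at 0 in all 3 double-treated libraries. The protein-coding genes at this end besides PTGES, IL1B and DUSP1 were NR4A2, an immediate-early nuclear receptor with 1.37, 1.599 and 1.402 TPM in the double-treated libraries, against 14.96, 16.7 and 13.4 TPM in the control libraries (log2 fold change -2.70, SE 0.20, adjusted p = 8.93e-07), STC1, a secreted glycoprotein with 95.98, 82.8 and 101 TPM in the double-treated libraries, against 451, 484 and 454 TPM in the control libraries (log2 fold change -2.30, SE 0.16, adjusted p = 5.72e-07), and NDE1, a dynein regulator of mitosis with 12.1, 6.78 and 12.9 TPM in the double-treated libraries, against 42.2, 52.02 and 53.4 TPM in the control libraries (-2.15).

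SSC4D, a scavenger-receptor protein of little studied function, was the last of the 15 highest, with 15.2, 14.002 and 18.1 TPM in the double-treated libraries, against 1.09, 0.31 and 0.475 TPM in the control libraries (log2 fold change 3.39, SE 0.19, adjusted p = 7.51e-08). By gene class, 904 of 11501 protein-coding genes rose and 1991 fell, while 95 of 1036 lincRNA and antisense genes rose and 104 fell. Strand was not stated for the libraries, so reads of antisense genes cannot be told from those of their partners.

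How much of the total effect each treatment gave alone can be read from the other 2 groups, siQ61K with DMSO and siNC with poly(dA:dT), each set against the same control libraries. These comparisons share libraries, so their values are given side by side for a fixed set of genes and no overlap between them is counted. Over all genes tested 4612 (33.8%) were called under siQ61K alone and 19 (0.139%) under poly(dA:dT) alone. The test of whether the combined change differed from the sum of the 2 single changes on the log2 scale is the interaction, which was called for 2730 genes (20.0%).

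For several interferon-stimulated genes of the set the combined change exceeded the sum. IFIT1 averaged 506 TPM in the double-treated libraries, 20.2 TPM under siQ61K alone, 40.99 TPM under poly(dA:dT) alone and 6.51 TPM in the control libraries, with log2 fold changes of 6.07, 1.5 and 2.46 in that order of treatments (interaction 2.11, SE 0.21, adjusted p = 0.000307). IFI44L was at 26.4 TPM with both treatments, 0.382 TPM under siQ61K alone, 0.708 TPM under poly(dA:dT) alone and 0.0303 TPM with neither (interaction 3.59, SE 0.27, adjusted p = 3.24e-05). The other 3 groups lay under 1 TPM, so the size of this interaction rests on the pseudocount, and it was 2.36 with a pseudocount of 5. IFI6 (interaction 1.41, SE 0.23, adjusted p = 0.00543) and MX1 (interaction 2.14, SE 0.30, adjusted p = 0.00248) showed the same. DDX58 fell under siQ61K alone (-0.63) and was called neither way under poly(dA:dT) alone (0.47, adjusted p = 0.247), while it rose by 2.08 with both (interaction 2.24, SE 0.18, adjusted p = 5.29e-05). B2M was near the control level under siQ61K alone (-0.04) and poly(dA:dT) alone (-0.03), against 0.78 with both (interaction 0.85). Not every interferon-stimulated gene described above had a called interaction: it was 0.03 for IRF9 (adjusted p = 0.936), -0.02 for PSMB8 (adjusted p = 0.94), 0.38 for TAP1 (adjusted p = 0.234, but called at 0.92 with the correction for GC content described below) and 0.80 for CCL5 (adjusted p = 0.108).

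SPRY2, IL1B, IL32, THBS1 and INSIG1 lay close to their change under siQ61K alone. The combined log2 fold change was -1.72 for SPRY2, against -1.72 under siQ61K alone and -0.03 under poly(dA:dT) alone (interaction 0.03, adjusted p = 0.9). For IL1B the 3 values were -2.66, -2.68 and -0.01, for IL32 3.48, 3.62 and 0.10, for THBS1 2.80, 2.97 and -0.24, and for INSIG1 -1.25, -1.27 and -0.06. Their interactions were not called, nor was that of ETV5 (adjusted p = 0.229). CCNB1 fell by 1.20 with both treatments and by 1.47 under siQ61K alone (interaction 0.46, adjusted p = 0.0617), and NRAS by 1.28 with both and 1.61 under siQ61K alone (interaction 0.51, adjusted p = 0.13). Both of these interactions were called after median-of-ratios scaling (0.54 for CCNB1 and 0.59 for NRAS) and were smaller, and not called, with the correction for GC content described below (0.17 for CCNB1, adjusted p = 0.39, and 0.16 for NRAS, adjusted p = 0.476). The pseudogene BZW1P2 was also in the set, with -5.67 with both treatments, -1.64 under siQ61K alone and -4.70 under poly(dA:dT) alone (interaction 0.67, SE 1.45, adjusted p = 0.773), and its values in single libraries of the last group were 0, 0 and 32.8 TPM. CXCL8 differed, with -1.73 against -2.60 under siQ61K alone (interaction 1.05, SE 0.23, adjusted p = 0.0129).

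**Figure D4:**
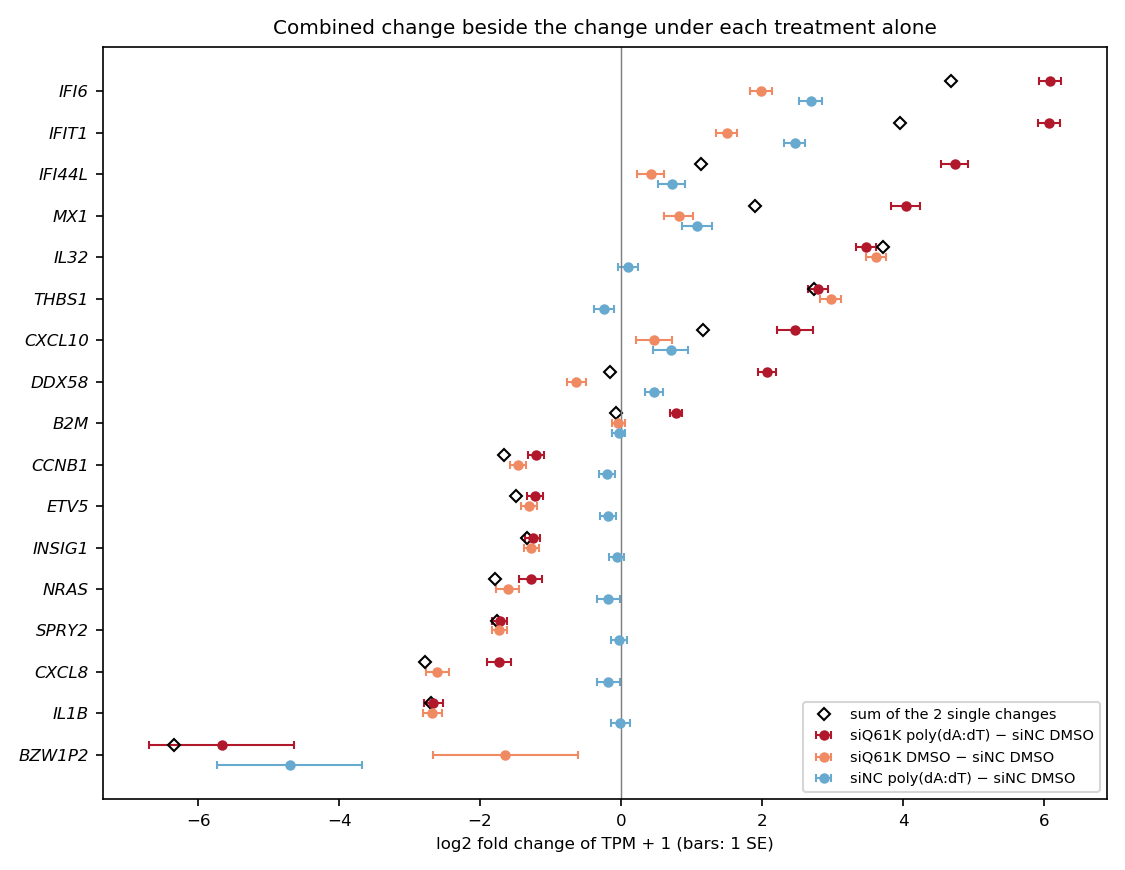
Log2 fold change of TPM + 1 against the control libraries for 17 genes, with both treatments (red), siQ61K alone (orange) and poly(dA:dT) alone (blue), bars 1 SE, and the sum of the single changes (open diamond). The diamond lies left of the red point for IFI6, IFIT1, IFI44L, MX1, CXCL10, DDX58 and B2M. It also lies left for CXCL8, BZW1P2, NRAS, CCNB1 and ETV5, of which only CXCL8 had a called interaction. For IL32, THBS1, INSIG1, SPRY2 and IL1B it lies at or near the red point.

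GC content moved with the single comparisons and with the interaction, and little with the combined one. Across the 13261 genes with a known GC content, the rank correlation of GC with the log2 fold change was 0.039 for the combined comparison, 0.523 for siQ61K alone, 0.536 for poly(dA:dT) alone and -0.681 for the interaction. Genes are not independent replicates, and these are descriptions without a test. In single libraries the correlation was 0.1, -0.286 and -0.457 in double-treated replicates 1 to 3, against -0.519, -0.384 and -0.033 in control replicates 1 to 3. After each library was corrected for GC content and transcript length, the interaction stayed called for IFI44L (3.26, adjusted p = 4.47e-05), DDX58 (1.96), MX1 (2.42), IFIT1 (1.91) and IFI6 (1.64), and it was lost for B2M (0.48, adjusted p = 0.0517), CXCL10 (0.70, adjusted p = 0.297) and CXCL8 (0.36, adjusted p = 0.177). The combined calls themselves held after this correction for 124 of 128 named genes that had a GC content.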

How the data were processed

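The authors deposited 1 table of TPM per gene symbol for 12 libraries, 3 in each of 4 groups, and the columns were matched to the sample titles by their names, which is an inference from the names. Per the labels' protocols, libraries were prepared from 1 µg of total RNA with a NEBNext Ultra kit and read on an Illumina NovaSeq 6000 instrument. Salmon 0.8.0 and the build hg19 are named in the submitters' processing notes, and the annotation is not given in the sources used here. Deposited TPM of a library summed to between 964007 and 967331 over all entries, with repeated symbols included. TPM keep no depth, so no depth per library can be stated and no interval of counting error is printed. Of 56227 entries, 984 that repeat 58 symbols were left out.

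Values were analysed as log2(TPM + 1) with limma 3.58.1 (R 4.3.3): a linear model of all 12 libraries with group as the only factor and a variance trend, two-sided, with Benjamini-Hochberg adjustment over 13661 genes, those that reached 1 TPM in 3 or more of the 6 libraries compared. Genes were called at an adjusted p under 0.05. SE are those of the model, and fold changes are double-treated over control.

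The gene lists (21 by function and 6 of cell markers) and the members described were chosen with earlier results of these data known, so lists are described by counts and medians and carry no test. Genes named were NRAS, the 15 highest and 15 lowest called genes without overlap whose mean reached 5 TPM in the higher group, up to 5 called members of each list with the largest changes, and a fixed set. Other genes named with a value were chosen after their values were seen. GC content and length came from GENCODE 29 on another build, matched by symbol for 13261 genes (97.07%), and served only for the correction (lowess, span 0.3). Promoter sequences are from RefSeq (GRCh38.p14), matched by symbol for 10071 genes (73.7%). No share is given for sets with a window for under 80% of their members.

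Replicate numbers were not used to pair libraries in the main fit. Alternatives were the 6 libraries alone, each library left out in turn, a replicate block, sample weights, a robust or no variance trend, the GC and length correction, quantile normalization, median-of-ratios scaling, no mitochondrial genes, pseudocounts of 0.1 and 5, and 2 other filters (none, or a mean of 5 TPM). The script was tested on simulated data. Some genes are not reported here by name, and the counts of the lists include them.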

Additional observations from a re-analysis of the deposited data

Results flagged for a closer look

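For 8 genes of the fixed set the change with both treatments differed from the sum of the changes under siQ61K alone and poly(dA:dT) alone (limma interaction on the log2 scale, Benjamini-Hochberg adjusted p under 0.05), which is why they are listed here. The interaction was 3.59 for IFI44L, 2.24 for DDX58, 2.14 for MX1, 2.11 for IFIT1 and 1.41 for IFI6, all interferon-stimulated genes, and each was called in every alternative run, though that of IFI44L was 2.36 with a pseudocount of 5. It was 0.85 for B2M, 1.3 for CXCL10 and 1.05 for CXCL8, and these 3 were not called after the correction for GC content and length (0.48, 0.70 and 0.36). For CXCL10, which was listed at 0 in all 3 control libraries, the call was also lost with a pseudocount of 0.1 (0.62, adjusted p = 0.676) and without double-treated replicate 2 or 3, siNC poly(dA:dT) replicate 2 or control replicate 1 (1.06 to 1.34). Across genes the interaction and GC content had a rank correlation of -0.681, and the part of GC content in these values was not tested beyond the correction.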

How the results depend on the processing

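Double-treated means siQ61K with poly(dA:dT), and control means siNC with DMSO. Against 3297 calls (1076 higher, 2221 lower), the count that rose moved to 1639 with median-of-ratios scaling and to 1947 with the GC and length correction. Leaving out 1 library gave 1998 to 3553 calls, 774 to 1111 higher and 1224 to 2442 lower. The lowest total and the lowest count that fell (1224) came without control replicate 2, and without double-treated replicate 2 there were 2163 calls, 1355 of them lower. The other alternatives gave totals between 2517 (the 6 libraries alone) and 4071 (sample weights), all within 1.5 times. NRAS kept its call under each alternative, at -1.46 to -1.19 with 1 library left out. Replicate numbers were checked for pairing: libraries of the compared groups with the same number had deviations that correlated at -0.303, -0.014 and -0.167. With 3 libraries in each group, this cannot tell whether libraries with the same number shared a culture or batch. A fit with the replicate block gave 3116 calls (1011 higher, 2105 lower). Of 129 named genes that were called, 111 kept the call in every alternative and none reversed; of 9 not called, 3 were called in at least 1. Those that lost it include FN1, CCND1 and CD274, and the cause was not tested. TPM give no depth, so low values and entries listed at 0 carry no stated precision.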

Other observations

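PARP genes, a family looked at after their values were seen, encode ADP-ribosyltransferases, of which PARP1 and PARP2 act in DNA repair and PARP9, PARP10, PARP12 and PARP14 are known as interferon-stimulated. Of 12 PARP genes tested, those 4 rose, PARP2 fell and 7 were not called, while 7.88% of all genes tested rose and 16.3% fell. PARP9 had 89.3, 73.4 and 74.9 TPM in the double-treated libraries, against 6.38, 7.70 and 7.16 TPM in the control libraries (log2 fold change 3.31, SE 0.13, adjusted p = 2.06e-09). PARP14 had 32.6, 30.3 and 28.5 TPM in the double-treated libraries, against 6.94, 9.59 and 8.25 TPM in the control libraries (log2 fold change 1.77, SE 0.19, adjusted p = 2.47e-05). PARP2 had 19.4, 26.2 and 31.7 TPM in the double-treated libraries, against 44.1, 33.5 and 34.4 TPM in the control libraries (log2 fold change -0.53, SE 0.18, adjusted p = 0.0437), and PARP1 was not called (-0.30, adjusted p = 0.061).

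Secreted proteins outside the lists, also chosen after their values were seen, were among the larger changes. AGT, which encodes angiotensinogen, had 11.9, 8.94 and 11.5 TPM in the double-treated libraries, against 0.128, 0.146 and 0.377 TPM in the control libraries, so that it passed the filter through the double-treated libraries alone (log2 fold change 3.27, SE 0.18, adjusted p = 6.68e-08). SCG5, a chaperone of prohormone convertase 2, had 122, 157 and 154 TPM in the double-treated libraries, against 21.3, 18.2 and 15.9 TPM in the control libraries (log2 fold change 2.90, SE 0.13, adjusted p = 1.04e-08). TGFB2, a transforming growth factor, had 34.0, 33.3 and 39.8 TPM in the double-treated libraries, against 8.63, 11.2 and 7.38 TPM in the control libraries (log2 fold change 1.88, SE 0.18, adjusted p = 9.79e-06). Under siQ61K alone, against the same control libraries, the changes were 3.54 for AGT, 2.33 for SCG5 and 1.82 for TGFB2, and under poly(dA:dT) alone they were 0.17, -0.14 and -0.42.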
